A study of Mus musculus with 25 samples.

Results

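Ptgds, Mup4, Mup5 and Lcn2 are 4 genes of the lipocalin family, found by their symbols in the annotation of the array, out of 18194 genes measured in salivary glands. The members were chosen by earlier results of these same arrays, in which the levels of some of them were known to differ with age, so their levels and fold changes are given as a description without a test. Ptgds had 2 probe sets, Mup5 had 1 and Lcn2 had 1, and Mup4 had no probe set of its own in the annotation, so it has no value here. A probe set is a group of short probes on the array that reads 1 transcript region, and its value is given on the log2 scale, on which a difference of 1 is a doubling.

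The RNA came from male C57BL/6.NOD-Aec1Aec2 mice aged 4 weeks and, in steps of 4 weeks, up to 20 weeks. Each of the 5 ages had 5 mice, and each mouse its own array (25 arrays). In this strain, a model of Sjögren's syndrome, the Idd3 interval of chromosome 3 (Aec1) and the Idd5 interval of chromosome 1 (Aec2) of the NOD mouse lie in the C57BL/6 background, and all 5 age groups carry both. Each array read a whole lobe of submandibular, sublingual and parotid gland from which salivary lymph nodes had been taken off, from mice of at least 2 litters per age. Arrays of the parental C57BL/6J strain were not analysed here, so age and disease stage cannot be told apart, and in whole glands fewer cells of a type and less RNA per cell cannot be told apart either.

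Lipocalins are small proteins, most of them secreted, that fold into a cup and carry fatty, scented or other poorly soluble molecules in its hollow. Ptgds encodes the lipocalin-type prostaglandin D synthase, which is both an enzyme that makes prostaglandin D2 and a carrier of retinoids and other lipids. Mup4 and Mup5 encode major urinary proteins, which bind pheromones and other volatile scents and are made in liver and in several exocrine glands. Lcn2 encodes lipocalin 2 (neutrophil gelatinase-associated lipocalin), which withholds iron from bacteria by binding their siderophores and is made by neutrophils and by stimulated epithelia.

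In the genome Ptgds and Lcn2 both lie on chromosome 2, and Mup4 and Mup5 lie in the Mup cluster of chromosome 4, so none of them is on a chromosome of the NOD intervals. The protein-coding neighbors of Ptgds on 1 side are Lcn12, a lipocalin, and C8g, the lipocalin chain of complement component 8. The neighbor of Lcn2 is Ptges2, which encodes a prostaglandin E synthase. To show what lies before the start of the most changed member and of the other one on its chromosome, the 250 bases upstream of Ptgds (chr2:25469750-25469999, minus strand) and of Lcn2 (chr2:32387740-32387989, minus strand) are given below, 5′ to 3′ from RefSeq on GRCm38.p6, with the ATAAA nearest to the start in capitals.
Ptgds: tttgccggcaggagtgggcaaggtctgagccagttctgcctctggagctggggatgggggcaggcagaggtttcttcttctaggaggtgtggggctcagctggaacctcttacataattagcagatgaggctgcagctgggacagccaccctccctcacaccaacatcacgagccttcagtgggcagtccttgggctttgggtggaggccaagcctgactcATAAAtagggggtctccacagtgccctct
Lcn2: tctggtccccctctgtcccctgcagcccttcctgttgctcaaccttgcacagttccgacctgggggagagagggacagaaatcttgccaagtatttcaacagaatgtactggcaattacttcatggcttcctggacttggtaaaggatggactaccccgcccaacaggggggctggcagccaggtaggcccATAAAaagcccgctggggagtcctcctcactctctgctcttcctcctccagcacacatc
The letters ATAAA, the core of many TATA boxes, begin at position -29 from the start of Ptgds and at -59 from that of Lcn2, counting the last base before the start as -1. On the gene strand 11% of 32851 mouse promoters hold ATAAA in the 100 bases before the start, a window that was set after the letters of these promoters had been seen. In Ptgds the letters TGACTCA, a known binding sequence of AP-1 factors, begin at -35 and overlap ATAAA by 1 base. They were searched on both strands of the 250 bases and occur there in 4.46% of promoters, and they do not occur in the printed bases of Lcn2.

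Ptgds was low in every mouse at 4 weeks and higher in every mouse of every later age. Its gene value, the mean of its probe sets, was 4.10, 4.79, 4.72, 4.42 and 4.46 in mice 1 to 5 at 4 weeks. At 8 weeks the values were 8.34, 8.84, 8.42, 7.91 and 7.86, and at 12 weeks 7.45, 7.95, 6.36, 7.84 and 7.48. At 4 weeks the mice lay within 1 log2 unit of each other, and the lowest value of 8 and 12 weeks (6.36) stood above the highest of 4 weeks (4.79). At 16 weeks Ptgds was 9.45, 7.50, 6.13, 6.23 and 9.38, and at 20 weeks 9.46, 8.81, 5.64, 9.18 and 8.78. The spread was widest at these 2 ages, where mice 3 and 4 at 16 weeks and mouse 3 at 20 weeks were the low ones.

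The mean of Ptgds was 4.50 ± 0.28 at 4 weeks, 8.27 ± 0.40 at 8 weeks, 7.42 ± 0.63 at 12 weeks, 7.74 ± 1.62 at 16 weeks and 8.37 ± 1.55 at 20 weeks (SD, n = 5 per age). Against 4 weeks the log2 fold changes were 3.78, 2.92, 3.24 and 3.87 (SE 0.65 each), which are 13.7-fold, 7.55-fold, 9.45-fold and 14.7-fold. These folds may understate the difference, since 1 of the 2 probe sets lay near background at 4 weeks. In the order of the means, 20, 8, 16 and 12 weeks followed each other with overlapping values, and 4 weeks came last and apart. The comparisons with 4 weeks share the same 5 mice. The SD of 0.63 at 12 weeks was exceeded by 0.761% of the 11696 genes with an expressed probe set, and that of 1.62 at 16 weeks by 0.752%, so mice of 1 age differed in Ptgds more than in most genes. At 4 weeks 47.3% of these genes had a larger SD than Ptgds.

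Both probe sets of Ptgds gave the same picture. The brighter one had 4.83 to 5.99 at 4 weeks and 6.75 to 10.4 afterwards. The other had 3.37 to 3.82 at 4 weeks, near the median of 3.27 over all probe sets, and 4.54 to 8.63 afterwards. Their log2 fold changes were 3.93, 2.98, 3.51 and 3.86 for the brighter one and 3.62, 2.86, 2.97 and 3.88 for the other, in the order of age. Across the 25 mice they correlated with r = 0.97, and with r = 0.96 once the mean of each age had been taken off (description, since both read the same RNA).

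**Figure D1:**
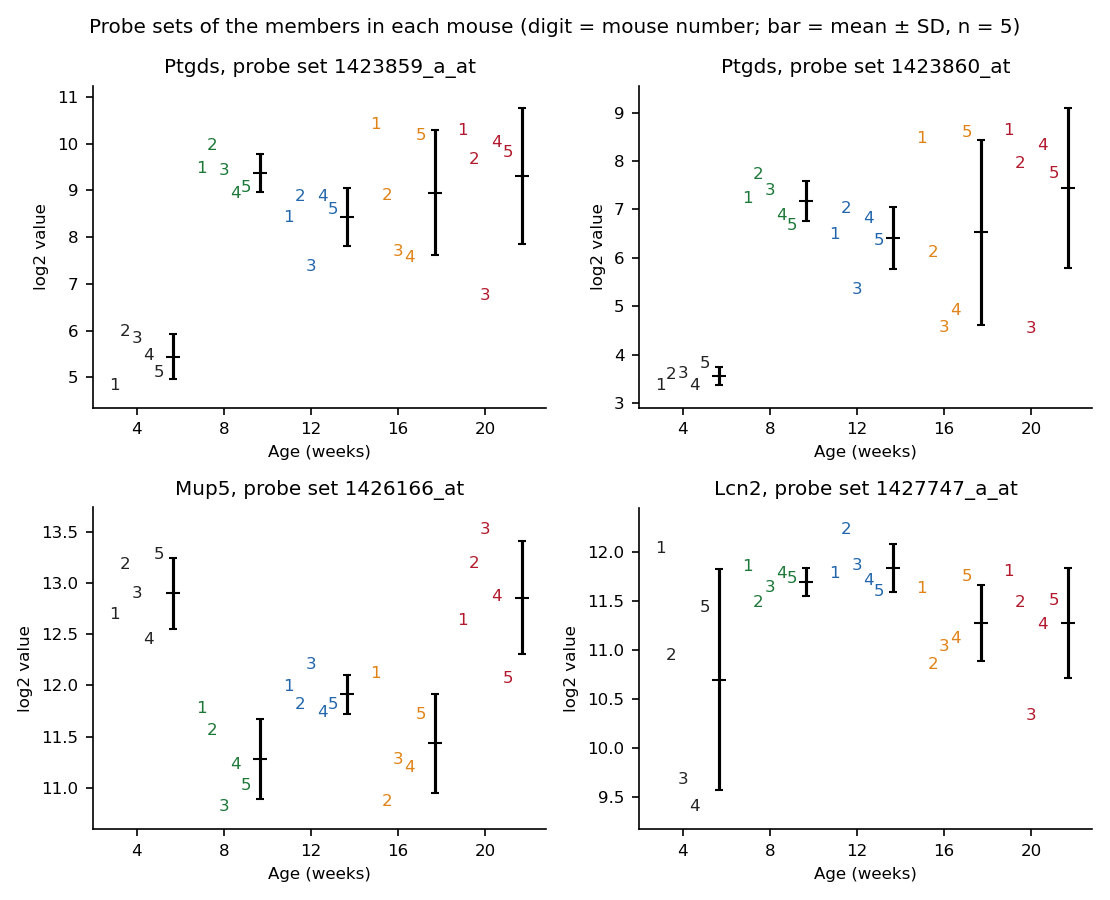
Log2 value of each probe set of Ptgds, Mup5 and Lcn2 against age in weeks, with a digit for each mouse (its number) and the mean ± SD of 5 mice beside it. Ptgds at 4 weeks lies below all later mice on both probe sets, Mup5 at 8, 12 and 16 weeks lies below the mice of 4 weeks, and Lcn2 has 2 low mice at 4 weeks (9.67 and 9.39).

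Mup5 was lower than at 4 weeks in every mouse of 8, 12 and 16 weeks, and at 20 weeks its values overlapped those of 4 weeks. Its only probe set had 12.69, 13.19, 12.90, 12.45 and 13.29 in mice 1 to 5 at 4 weeks. The values were 11.78, 11.56, 10.81, 11.23 and 11.02 at 8 weeks and 11.99, 11.82, 12.21, 11.73 and 11.82 at 12 weeks. No mouse of these 2 ages reached the lowest of the 4-week mice. At 16 weeks Mup5 was 12.12, 10.87, 11.28, 11.20 and 11.71, again all below 4 weeks. At 20 weeks it was 12.63, 13.20, 13.52, 12.87 and 12.07, and mouse 3 held the highest value of the 25.

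The means of Mup5 were 12.90 ± 0.35, 11.28 ± 0.39, 11.91 ± 0.19, 11.43 ± 0.49 and 12.86 ± 0.55 from the youngest to the oldest age (SD, n = 5 per age). The log2 fold changes against 4 weeks were -1.62, -0.99, -1.47 and -0.04 (SE 0.25 each), so that 4 weeks exceeded 8 weeks 3.08-fold, 12 weeks 1.99-fold and 16 weeks 2.77-fold. From 16 to 20 weeks the mean rose by 1.42, while the highest mouse of 16 weeks (12.12) and the lowest of 20 weeks (12.07) still overlapped. In the order of the means, 4 and 20 weeks overlapped widely, 20 and 12 weeks overlapped in their outer mice, and 12, 16 and 8 weeks overlapped with the next in order. The change at 20 weeks has no settled sign, since it was 0.15 without mouse 5 of 20 weeks and -0.21 without mouse 3.

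Mup genes are near copies of each other, and whether the probe set reads Mup5 alone was not tested. Of the other Mup genes listed, Mup3 and Mup10 were measured. Mup3 stayed between 4.05 and 4.68 in every mouse but mouse 3 at 20 weeks (5.82). Alb and other liver genes, given as markers because liver is the main source of urinary proteins, had a mean log2 value between 3.14 and 3.67 over the list in all mice (6 of 7 measured, 1 expressed), and that mean was 3.52 to 3.67 at 4 weeks and 3.14 to 3.62 at 20 weeks. Ttr, the transthyretin gene and the expressed one, fell at each later age, and Alb was at 2.15 at 4 weeks.

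Lcn2 was spread widely at 4 weeks and narrowly at 8 and 12 weeks. Its only probe set had 12.04, 10.95, 9.67, 9.39 and 11.43 in mice 1 to 5 at 4 weeks. The values lay between 11.49 and 11.86 at 8 weeks, between 11.59 and 12.23 at 12 weeks, between 10.85 and 11.75 at 16 weeks and between 10.33 and 11.81 at 20 weeks. Every later age overlapped 4 weeks, because mouse 1 of 4 weeks was higher than all older mice but mouse 2 of 12 weeks.

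The means of Lcn2 were 10.70 ± 1.13, 11.70 ± 0.14, 11.84 ± 0.24, 11.28 ± 0.39 and 11.28 ± 0.57 from the youngest to the oldest age (SD, n = 5 per age). The log2 fold changes against 4 weeks were 1.00, 1.14, 0.58 and 0.58 (SE 0.37 each), or 2.0-fold, 2.20-fold, 1.49-fold and 1.49-fold. Leaving out mouse 4 of 4 weeks gave 0.67, 0.81, 0.25 and 0.25, and leaving out mouse 1 of 4 weeks gave 1.34, 1.48, 0.91 and 0.91, so the size of these changes was set by single mice of 4 weeks. The SD of 1.13 at 4 weeks was exceeded by 0.513% of expressed genes, and that of 0.14 at 8 weeks by 63.9%. Ages next to each other in the order of the means (12, 8, 16, 20 and 4 weeks) overlapped throughout.

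Among all genes 4.66% passed the F-test over the 5 ages, a moderated test in limma with Benjamini-Hochberg adjustment and a threshold of 0.05. Of the 3 members with a probe set, 2 lay past that threshold, from which nothing is read because the members were chosen for their changes. Against 4 weeks, 1.48% of genes were higher at 8 weeks and 0.78% lower, 5.66% higher at 12 weeks and 1.36% lower, 1.71% higher at 16 weeks and 1.68% lower, and 1.14% higher at 20 weeks and 1.52% lower. These shares are the background for the counts of other genes given below, where rose and fell mean an adjusted p under 0.05.

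A few arrays stood apart, among them those with low Ptgds at 16 and 20 weeks. The mean of 6 B and plasma cell markers was 8.83 and 8.69 in mice 3 and 4 at 16 weeks and 7.34 in mouse 3 at 20 weeks, and at most 5.44 in the other 22 mice. The mean of 4 markers of lymph node vessels and stroma (6 listed, 2 expressed) was 5.87, 5.57 and 5.59 in the same 3 mice. It was also 4.54, 5.36 and 4.74 in mice 3, 4 and 5 at 4 weeks and 4.36 in mouse 4 at 8 weeks, and 2.90 to 3.92 in the rest. Glycam1, a gene of lymph node venules, was 9.11, 9.62 and 8.07 in those mice of 4 weeks and 4.14 and 4.27 in the other 2, while all 5 had low Ptgds. The array of mouse 3 at 20 weeks also had a median correlation of 0.887 with the arrays of its age (at least 0.973 for the other arrays), and in it the 3′ control probe sets of Actb and Gapdh exceeded the 5′ ones by 5.36 and 3.87 log2 units (at most 3.75 and 1.68 in the other arrays). Without these 3 arrays, a choice made after seeing the data, Ptgds had log2 fold changes of 3.78, 2.92, 4.28 and 4.56, against 3.24 and 3.87 at 16 and 20 weeks with all arrays. With the B cell marker mean as a covariate they were 3.49, 2.51, 3.99 and 4.21. Mup5 had -1.34 and -0.21 at 16 and 20 weeks without the 3 arrays and Lcn2 had 0.71 and 0.82. The part of these cells, of lymph node tissue or of RNA quality in the values was not tested. Fibroblast markers moved with age in the opposite direction to Ptgds: the mean of 6 was 8.58 to 9.21 at 4 weeks and 6.26 to 7.99 in all older mice, and 3, 4, 4 and 3 of the 6 fell at the later ages in turn, with Col1a1, Col1a2 and Col3a1 at each. Smooth muscle and myoepithelial markers moved in the same direction as Ptgds at 8 and 12 weeks. The mean of 6 was 7.58 to 9.42 at 4 weeks and 9.83 to 10.3 at 8 and 12 weeks. Of the 6, 2 rose at 12 weeks and 0 at the other ages, and 0 passed the F-test. At 16 weeks their mean was 10.1 and 10.3 in mice 1 and 5, those with the highest Ptgds, and 8.97 to 9.51 in the other 3. At 20 weeks it was 6.79 in mouse 3, 9.39 in mouse 5 and 9.72 to 10.1 in the others. The part of either cell type in the values was not tested.

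The amount of parotid tissue also differed between lobes. The mean of 6 parotid acinar markers (of 7 listed) was 9.72 to 11.8 in 8 mice and 13.6 to 15.0 in the other 17, and both kinds of mice occurred at each age. At 8 weeks Ptgds was 8.84 and 8.42 in mice 2 and 3, those with low parotid markers, and 7.86 to 8.34 in the others. At 12 weeks it was 7.84 in mouse 4, the one with low markers, and 7.45, 7.95, 6.36 and 7.48 in the others. At 16 weeks Ptgds was 9.38 and 7.50 in mice 5 and 2, those with low parotid markers, and 9.45, 6.13 and 6.23 in the others. At 20 weeks it was 9.46 and 8.78 in mice 1 and 5, those with low markers, and 8.81, 5.64 and 9.18 in the others. At 4 weeks mouse 2, the one with low parotid markers, had a Ptgds value of 4.79, the highest of its age by 0.07, and all 5 mice were below the later ages whatever their parotid markers. The part of parotid tissue in the values was not tested.

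**Figure D2:**
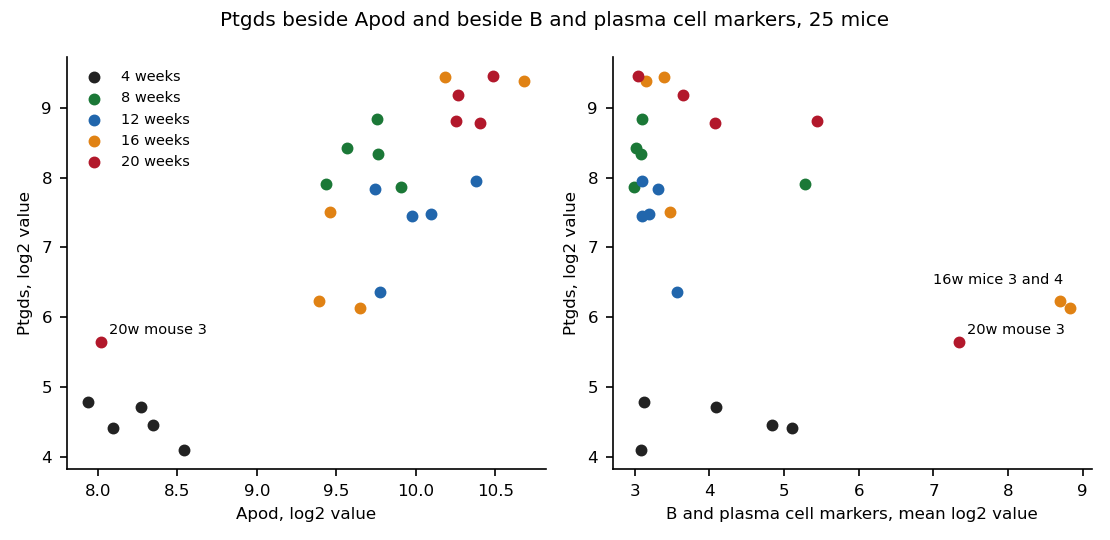
Log2 value of Ptgds in each of 25 mice against the log2 value of Apod (left) and against the mean log2 value of 6 B and plasma cell markers (right), colored by age. Mice 3 and 4 at 16 weeks and mouse 3 at 20 weeks have low Ptgds for their age and the highest B and plasma cell marker means, and mouse 3 at 20 weeks is also low in Apod.

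The 5 genes whose pattern was most like that of Ptgds over the 25 mice were Apod, Tm6sf1, Kcns3, Pik3c2a and Atp4a, with Pearson r of 0.89, 0.86, 0.86, 0.85 and 0.84. The median r of Ptgds with all expressed genes was 0.18. Apod encodes apolipoprotein D, itself a lipocalin, Kcns3 a potassium channel subunit and Atp4a a subunit of the proton pump that acidifies the stomach. With the mean of each age taken off, r was 0.81, 0.67, 0.79, 0.66 and 0.67, against a median of 0.25. Without the 3 arrays named above the r over all ages was 0.91, 0.88, 0.89, 0.84 and 0.88. These values are descriptions, as the genes share the same 25 arrays and glands.

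For Mup5 the nearest genes were Fads2b, Rab12, Csgalnact1, Nadk2 and Pdzrn3, with r of 0.77, 0.74, 0.73, 0.73 and 0.73 (median -0.09). Within ages r was 0.15, 0.54, 0.39, 0.44 and 0.56 (median 0.03), so the likeness of Fads2b, which is named as a fatty acid desaturase, came from the age means. Fads2b had log2 fold changes of -1.91, -0.95, -1.87 and -0.60 in the order of age, and for the other 4 genes the changes did not exceed 0.41 in size.

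For Lcn2 they were Klk1b24, Klk1b1, Bcl2l14, Klk1b21 and Cd14, with r of 0.96, 0.94, 0.94, 0.93 and 0.93 (median 0.34), and 0.95, 0.92, 0.92, 0.92 and 0.90 within ages (median 0.34). Klk1b genes encode tissue kallikreins of the granular ducts of the submandibular gland, near copies of each other whose probe sets may share signal, and Cd14 is a receptor for bacterial lipopolysaccharide. At 4 weeks Klk1b24 was 14.86, 14.49, 13.88, 13.36 and 14.73 in mice 1 to 5, the same order as Lcn2. Bcl2l14, a Bcl2 family gene, was 10.46, 9.37, 8.91, 7.88 and 10.10, again in that order. The mean of 6 smooth muscle and myoepithelial markers was 9.42, 8.87, 8.41, 7.58 and 9.24 in these mice, also in that order, and 6.79 in mouse 3 at 20 weeks, the lowest of the 25. The granular duct list had 2 of 9 genes measured, Egf and Klk1, and 1 of them fell at 12, 16 and 20 weeks. At 4 weeks Egf was 14.59, 14.33, 14.30, 13.86 and 14.53 in mice 1 to 5, in the order of Lcn2. Klk1 was 14.94, 15.09, 14.86, 15.06 and 14.98, not in that order. In mouse 3 at 20 weeks, low for Lcn2, Egf was 14.89, the highest of the 25, and Klk1 was 14.40. The lymph node vessel and stroma mean was 4.54 and 5.36 in mice 3 and 4 at 4 weeks. It was 5.59 in mouse 3 at 20 weeks, and these mice were the lowest for Lcn2. In mouse 5 at 4 weeks and mouse 4 at 8 weeks it was 4.74 and 4.36, with Lcn2 of 11.43 and 11.78. Mice 3 and 4 at 16 weeks had 5.87 and 5.57, with Lcn2 of 11.04 and 11.12. The part of duct cells, contractile cells or lymph node tissue in the values of Lcn2 was not tested. Of 10 neutrophil markers measured none had an expressed probe set by its mean over all mice, and the mean of the list was 2.46 to 3.02. Single mice were higher for some of them. S100a8 was 5.75 in mouse 3 at 4 weeks, 4.26 and 5.28 in mice 3 and 4 at 16 weeks and 3.71 in mouse 3 at 20 weeks, and 2.63 to 3.22 in the rest. S100a9 was 4.72 and 4.04 in mice 3 and 4 at 4 weeks, which were the lowest for Lcn2, and at most 3.61 in the rest. Mouse 3 at 20 weeks had 3.89 for Cxcr2 and 3.38 for Csf3r (at most 3.07 and 2.62 in the rest). Ngp was 3.01 in mouse 4 at 4 weeks (at most 2.41 in the rest), and Camp was 2.85 in mouse 2 at 16 weeks (at most 2.40). The part of neutrophils in the values of Lcn2 was not tested.

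**Figure D3:**
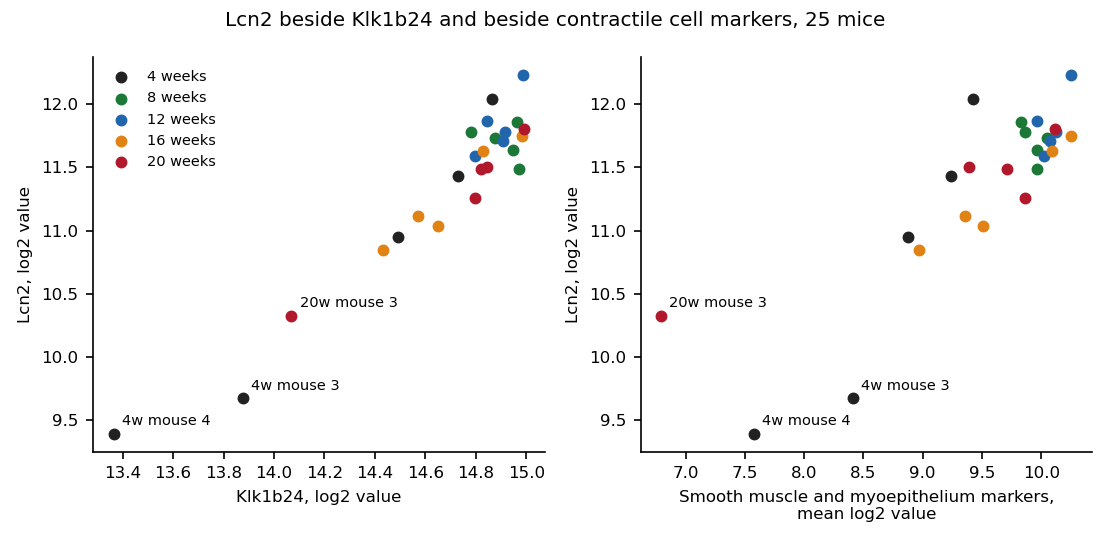
Log2 value of Lcn2 in each of 25 mice against the log2 value of Klk1b24 (left) and against the mean log2 value of 6 smooth muscle and myoepithelial markers (right), colored by age. Mice 3 and 4 at 4 weeks and mouse 3 at 20 weeks are the lowest for Lcn2 and for Klk1b24.

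After adjustment over 3 pairs, no pair of members passed the threshold of 0.05 for varying together within ages. After the mean of each age was taken off, Ptgds and Lcn2 correlated with r = 0.37 (permutation p = 0.0347, adjusted p = 0.104 over 3 pairs) and rho = 0.40 (permutation p = 0.0654, adjusted p = 0.196), and with r = 0.13 without the 2 mice farthest from the median of Ptgds. Ptgds and Mup5 had r = 0.01 (permutation p = 0.959, adjusted p = 0.959) and rho = 0.17 (permutation p = 0.492, adjusted p = 0.492), and r = 0.39 without 2 mice. Mup5 and Lcn2 had r = 0.11 (permutation p = 0.629, adjusted p = 0.943) and rho = 0.20 (permutation p = 0.375, adjusted p = 0.492), and r = 0.12 without 2 mice. The tests were two-sided, with values exchanged among the 5 mice of an age, and the 3 pairs with Mup4 could not be formed. Each of the 3 correlations pools 5 ages that hold 5 mice each, too few for a value within 1 age.

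Of 36 other lipocalins listed, 19 were measured and 6 had an expressed probe set. Apod passed the F-test (1 of 19 measured, against 4.66% of all genes) and rose at every age. It had a mean of 8.24 ± 0.23 at 4 weeks and 9.69 ± 0.18, 9.99 ± 0.26, 9.87 ± 0.55 and 9.89 ± 1.05 at the later ages in turn (SD, n = 5 per age). Its log2 fold changes were 1.45, 1.75, 1.63 and 1.65 (SE 0.34, limma adjusted p = 0.0262, 0.00377, 0.00855 and 0.00898). The 8-week call was lost without any 1 of 6 mice (mice 2, 3 and 4 of 4 weeks and 2, 3 and 5 of 8 weeks, limma adjusted p 0.0518 to 0.0822). Apod in mouse 3 at 20 weeks was 8.02, in the range of 4 weeks, and without that mouse the change at 20 weeks was 2.11. With the mean of all its probe sets the changes of Apod were 0.88, 1.05, 1.09 and 1.13.

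Mup10, named after its values were seen, rose at 16 weeks (log2 fold change 1.68, SE 0.46, limma adjusted p = 0.048). It was 7.13 and 6.99 in mice 3 and 4, those with the most B and plasma cell RNA, and 3.89 to 4.82 in the other 3 mice of that age. Without the 3 arrays with the most of this RNA it was 0.63 (adjusted p = 0.161), and the call was lost without any 1 of 20 single mice. Obp1a, an odorant-binding lipocalin also named after its values were seen, was 10.3 in mouse 2 at 4 weeks, 4.59 in mouse 3 at 4 weeks and 4.33 in mouse 3 at 20 weeks, and 3.13 to 3.52 in the rest. The mean of 7 lacrimal gland markers was 7.64 in that mouse 2 and 6.48 to 7.01 in the others. Obp1a is 1 of these 7 and raises the mean by itself, so the mean is not evidence apart from Obp1a. The part of lacrimal tissue was not tested. Lcn12 and C8g, the neighbors of Ptgds, had no expressed probe set, and their changes in the order of age were -0.05, -0.06, -0.02 and 0.05 for Lcn12 and -0.03, -0.0054, 0.05 and 0.03 for C8g.

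Intracellular lipid binding proteins, the relatives of lipocalins inside cells, did not pass. Of 14 measured (16 listed), limma called 0 by the F-test and 0 in each comparison, with 1 at an unadjusted p under 0.05 by the F-test and 2 in each of the 4 comparisons. Fabp4, the carrier of fat cells and vessels, had -0.87, -0.50, -0.12 and -0.48, and Fabp5, an epidermal form, had -0.11, 0.18, -0.11 and -0.02. The median change over the list was between -0.07 and 0.03, against -0.03 to 0.04 over all genes. At an unadjusted F-test p under 0.05 were also 2 of 19 other lipocalins and, of the lists below, 4 of 22 prostaglandin genes. So were 4 of 10 receptors and partners of lipocalin 2, 4 of 28 inducers of Lcn2 and 6 of 12 Mup regulators. The share of all genes at this unadjusted p is not given here, so nothing is read from these counts.

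In the prostaglandin pathway 22 of 25 genes were measured, 10 of them expressed, and 1 passed the F-test. That gene was Ptgr1, which encodes a reductase that inactivates prostaglandins and leukotrienes. It was 6.70 ± 0.52 at 4 weeks, 8.07 ± 0.09 at 12 weeks and 7.77 ± 0.18 at 16 weeks (SD, n = 5). Ptgr1 rose at 12 weeks (1.37, SE 0.25, limma adjusted p = 0.0021) and at 16 weeks (1.07, adjusted p = 0.0174). It had 0.80 at 8 weeks and 0.70 at 20 weeks. The 16-week call was lost without mouse 2, 3 or 4 of 4 weeks or mouse 1 of 16 weeks (0.92 to 1.01). Ptges2, the neighbor of Lcn2, had 0.56, 0.98, 0.64 and 0.29 and did not pass at any age (adjusted p = 0.123 at 12 weeks). The hematopoietic synthase gene Hpgds and the prostaglandin D2 receptor genes Ptgdr and Ptgdr2 had no expressed probe set. Ptgs1, the gene of cyclooxygenase 1, was among the 3 genes without a probe set of their own.

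Among receptors and partners of lipocalin 2, 10 of 13 genes were measured, 7 were expressed and 3 passed the F-test. Slc40a1, the iron exporter ferroportin, was 6.83 ± 0.45 at 4 weeks, 5.55 ± 1.01 at 16 weeks and 4.64 ± 1.04 at 20 weeks (SD, n = 5), and it fell at 20 weeks by 2.20 on the log2 scale (SE 0.44, limma adjusted p = 0.00641). The change was -1.79 without mouse 3 of 20 weeks and -1.26 with the mean of all its probe sets. Tfrc, the transferrin receptor, rose at 8 weeks (0.37, SE 0.09, adjusted p = 0.0379). The Tfrc call was lost without any 1 of 7 mice and with its brightest probe set, which gave 1.00 (limma adjusted p = 0.114). The call of Tfrc was also lost with the mean of all its probe sets (0.23, adjusted p = 0.541). With a trend and robust prior its adjusted p was 0.0751. Mmp9, the gelatinase that binds lipocalin 2, was near background, with 3.24 at 4 weeks and 3.57 at 20 weeks, and rose at 20 weeks (0.33, SE 0.08, adjusted p = 0.018), a call lost with the mean of all its probe sets (0.17). Fth1, the heavy chain of ferritin, which was named after its values were seen, rose at 12 weeks (0.72, adjusted p = 0.0178), a call lost without mouse 4 of 4 weeks (0.58) or mouse 2 of 12 weeks (0.70). The receptor genes Lrp2 and Slc22a17 did not pass at any age.

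**Figure D4:**
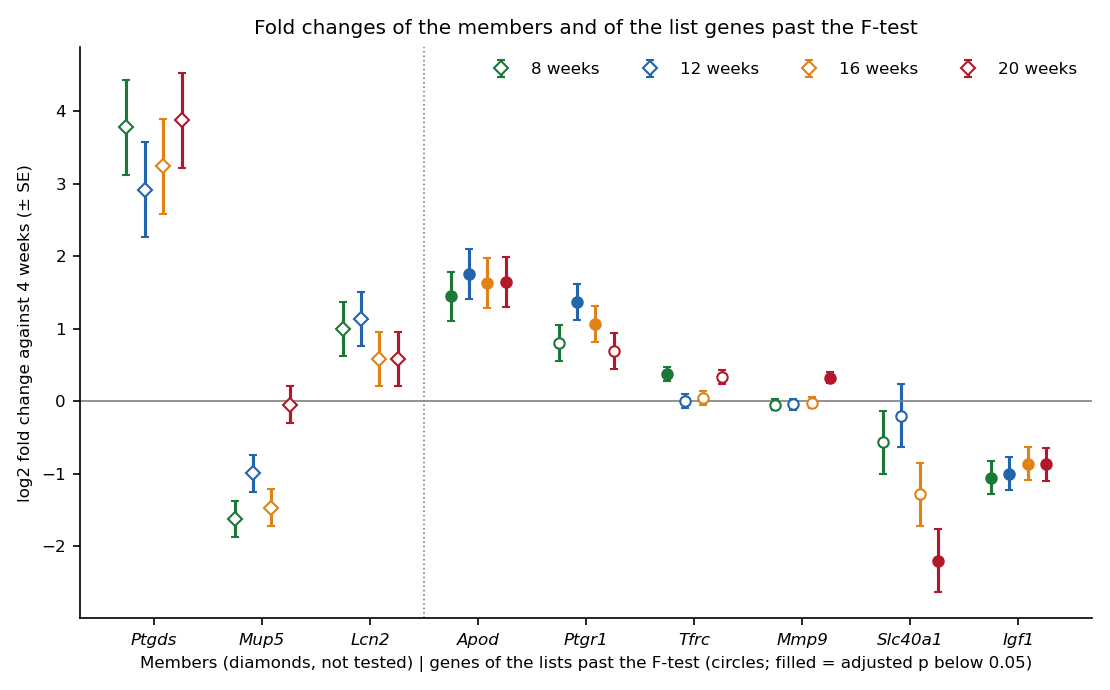
Log2 fold change against 4 weeks (± SE from the fit of 25 mice) at the 4 later ages for the members, drawn as diamonds because they were not tested, and for the genes of the lists past the F-test, drawn as circles that are filled where the adjusted p was below 0.05. Ptgds and Apod are above 0 at every age, Mup5 is below 0 at 8, 12 and 16 weeks, and Slc40a1 is lowest at 20 weeks (-2.20).

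Of 28 measured inducers of Lcn2 and genes induced with it (32 listed, 16 expressed), limma called 0 by the F-test, with 4 at an unadjusted p under 0.05. In the single comparisons, 1 gene fell at 12 weeks and 1 at 20 weeks, and both are named after their values were seen. Cxcl1, a neutrophil chemokine, fell at 12 weeks by 0.93 on the log2 scale (adjusted p = 0.0351), a call lost without any 1 of 7 mice, with the mean of all probe sets (-0.35) and after quantile normalization (-1.29). Lpo, the lactoperoxidase of saliva, fell at 20 weeks by 1.07 (adjusted p = 0.0211), a call lost without mouse 2 of 4 weeks (-0.97) or mouse 5 of 20 weeks (-0.89). The NF-kappaB subunit gene Rela had 0.32, 0.52, 0.45 and 0.20, and Nfkbiz, which directs NF-kappaB to Lcn2, had 0.38, 0.37, 0.24 and 0.0046, and neither passed. Slpi, a secreted protease inhibitor, did not pass and was 10.3 in mouse 3 at 20 weeks, 6.66 and 6.40 in mice 3 and 4 at 16 weeks, 5.32 in mouse 2 at 20 weeks and 3.80 to 4.09 in the rest.

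Among 12 measured regulators of Mup genes (17 listed, 11 expressed), 1 passed the F-test. Igf1, a growth factor gene switched on by growth hormone, was 5.73 ± 0.48 at 4 weeks and 4.67 ± 0.09, 4.73 ± 0.35, 4.86 ± 0.43 and 4.86 ± 0.38 at the later ages (SD, n = 5 per age). It fell at each of these ages, with log2 fold changes of -1.05, -0.996, -0.86 and -0.87 (SE 0.23, limma adjusted p = 0.0154, 0.0104, 0.0376 and 0.041). With the brightest probe set of Igf1 none of the 4 passed (-0.98, -1.07, -0.51 and -0.38). The calls at 8, 16 and 20 weeks were lost without 1, 7 and 14 single mice in turn, mouse 4 of 4 weeks among them at each age (-0.90, -0.71 and -0.71). Igf1 is also made by fibroblasts, whose marker mean was higher at 4 weeks as given above, and their part was not tested. Thra, a thyroid hormone receptor gene, rose at 12 and 16 weeks (0.35 and 0.31). Bcl6, the gene of a transcriptional repressor, fell at 12 weeks (-0.84, limma adjusted p = 0.0438). Both are named after their values were seen. Thra was 0.04 and 0.23 after quantile normalization and passed at neither age then, and its call at 16 weeks was lost under 15 of 34 alternatives, 9 of them the omission of 1 mouse. The call of Bcl6 was lost under 18 of 34. The growth hormone receptor gene Ghr had 1.03, 0.97, 0.66 and 1.02 and did not pass.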

How the data were processed

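RNA of 25 mice was read on Affymetrix mouse genome arrays. Values on the log2 scale, as deposited by the authors, cover 45101 probe sets on each array. GCRMA is the summary named in the methods, whereas the submitters' notes list RMA. Both correct background and compress low values. Nothing was rescaled, and array medians lay between 3.17 and 3.64. Arrays have no read depth, so the 5 mice per age and the background limit the precision.

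Probe sets with a single symbol were kept (34958), and 932 with several were left out. Gene IDs matched for 34754. Expressed means a probe set mean above 3.27, the median over all probe sets. For a gene the expressed probe sets were averaged, and all of them if none was expressed, giving 18194 genes. All arrays entered 1 fit in limma 3.58.1 (R 4.3.3) with age as a factor, two-sided. Member pairs were tested with 100000 resamples within ages (Python 3.11.15, numpy 2.4.6). In a test on simulated data for 12 weeks over 18194 genes, 71 of 100 genes with a log2 change of 1 and 92 of 100 with a change of 2 were recovered, and 10 others were called.

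The members and gene lists were chosen with earlier results of these data known. The text names the members, up to 3 genes per role list with the smallest F-test p past the threshold, and the 5 expressed genes most like each member by Pearson r. Alternatives were other ways to join probe sets, quantile normalization, array weights, a replicate block, a trend and robust prior, expressed genes only, linear means and leaving out each mouse. The B and plasma cell marker mean as a covariate, and the omission of the 3 arrays highest in it, were added after seeing the data. P-values measure the spread between mice of this series only.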

Additional observations from a re-analysis of the deposited data

Results flagged for a closer look

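Within an age group of 5 mice, a value was singled out where its gap to the nearest mouse exceeded 0.71 of the range of the group. Of 85 groups checked (members, the probe sets of Ptgds and called genes of the role lists), 8 held such a mouse, where chance alone gives about 1 in 20. Mouse 3 at 20 weeks was the low one for Ptgds (5.64, the others 8.78 to 9.46), for both of its probe sets (6.75 and 4.54), for Apod (8.02, the others 10.3 to 10.5) and for Fth1 (11.9, the others 12.9 to 13.1). These 5 share an array, which also had the lowest correlation with its age group. Bcl6 was low in mouse 4 at 8 weeks (7.60, the others 8.52 to 8.78). Thra was low in mouse 4 at 4 weeks (5.98) and in mouse 3 at 8 weeks (6.22).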

How the results depend on the processing

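The fold changes of Ptgds, and those of Mup5 at 8, 12 and 16 weeks, kept their direction under every alternative run. Over other settings Ptgds had 3.49 to 3.93, 2.51 to 2.99, 2.97 to 4.28 and 3.81 to 4.62 at the later ages in turn, and Lcn2 had 0.68 to 1.00, 0.78 to 1.14, 0.29 to 0.79 and 0.33 to 0.82. Quantile normalization moved the median expressed gene from 0.14 to -0.0055 at 12 weeks and from 0.10 to -0.03 at 8 weeks. With array weights 37.7% of all genes passed the F-test, and the lists had 7 other lipocalins, 4 intracellular lipid binding proteins, 9 prostaglandin genes, 10 inducers of Lcn2 and 9 regulators of Mup genes (1, 0, 1, 0 and 1 without weights). Quantile normalization gave 1 inducer and 2 regulators, only expressed genes 1 inducer, the brightest probe set 0 regulators, the B cell covariate 2 lipocalins, 1 inducer and 2 regulators, and the 3 arrays left out 2 inducers and 2 regulators. In these settings in turn, 7.55%, 9.01%, 4.96%, 4.6% and 8.23% of all genes tested passed, against 4.66% in the main fit. The cause was not tested. Leaving out 1 mouse gave 1 to 2 lipocalins, 0 to 1 intracellular proteins, 0 to 2 prostaglandin genes, 3 to 4 receptors and partners, 0 to 2 inducers and 0 to 4 regulators, the last with 4 without mouse 3 of 20 weeks. Without that mouse 12.1% of all genes passed, and without any other single mouse 2.37% to 6.0%. For Ptgds and Mup5, r was -0.041 with the brightest probe set and -0.076 after quantile normalization, and -0.18 to 0.39 without 1 mouse. Ptgds and Lcn2 had 0.17 to 0.51 without 1 mouse and passed (adjusted p = 0.0373, permutation) only without mouse 1 of 4 weeks. After quantile normalization this pair had 0.17 (adjusted p = 0.656, permutation). Without the 3 arrays with the most B cell RNA it had 0.09 (adjusted p = 0.67, permutation). Mup5 and Lcn2 had -0.048 to 0.32 without 1 mouse, the lowest without mouse 4 of 4 weeks. With a replicate block the fold changes of the members were the same by construction (3.78 for Ptgds at 8 weeks), 657 genes passed the F-test in place of 848, the calls of Tfrc at 8 weeks and Bcl6 at 12 weeks were lost (adjusted p = 0.0539 and 0.0635), and r was 0.08 for Ptgds and Lcn2. Among mice with the same number, 15 of 50 pairs correlated above 0.1 (-0.58 to 0.57), and 3 of 25 arrays were most like those of their own number. Whether mice with the same number share a batch was not tested.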

Other observations

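Some of the 15 circadian clock genes looked at ran against Mup5. They were chosen after values were seen and carry no test. Usp2, a deubiquitinase gene with daily rhythm, had r = -0.79 with Mup5 over the 25 mice (-0.41 within ages), and Tef, a transcription factor gene of the clock output, had -0.78 (-0.30 within ages). Usp2 had means of 8.00, 9.21, 9.26, 9.58 and 7.48 from the youngest to the oldest age, and Tef had 8.26, 9.57, 9.43, 9.62 and 8.08. Dbp, a relative of Tef, had means of 10.1 at 4 weeks, 10.7 at 16 weeks and 7.43 ± 1.15 (SD, n = 5) at 20 weeks, and it had r = -0.59 with Mup5 (-0.08 within ages). Cry2, Per2 and Nr1d1 had r of -0.62, -0.48 and -0.36 with Mup5 (0.00031, 0.05 and -0.03 within ages). Per3, which had no expressed probe set, had -0.58 (-0.15 within ages). For Nr1d2, Per1 and Cry1 it was -0.30, -0.20 and -0.11. Other clock genes did not run against Mup5: Npas2 had r = 0.48 with it (0.18 within ages) and Clock had 0.06. Bhlhe41 and Hlf, which had no expressed probe set, had 0.36 and 0.20. Mup5 was high at 4 and 20 weeks, the ages at which Usp2 and Tef were low. The hour at which glands were taken is not given in the sources used here, and its part in these values was not tested.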
